A study of Drosophila melanogaster with 6 samples.

Results

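The outer part of chromosome arm 3R of Drosophila melanogaster held 290 of the 13745 peaks in a list from chromatin immunoprecipitation and sequencing (ChIP-seq) of larvae. A peak entered when it lay on 3R with its centre, the midpoint of its first and last base, at or above position 2845000 of FlyBase release 5. The arm had 318 peaks in all, so 28 lay on the centromere side of that position. The first peak inside the boundary ran from 2915758 to 2916633 with a score of 108.58, and the last one outside it ran from 2564674 to 2564970 with a score of 17.57. The boundary therefore fell in an empty stretch of 350787 bp and divided no group of peaks.

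The libraries came from whole larvae in the third instar, at the wandering stage, from the y; cn bw sp strain, which is kept as the strain of the reference genome. Its labelled genotype has y[1] with oc[R3.2] on the X chromosome. The second chromosome carries Gr22b[1] and Gr22d[1], next to cn[1], then CG33964[R4.2], bw[1] and sp[1]. On the other large autosome the labels list LysC[1] and lab[R4.2], together with MstProx[1], GstD5[1] and Rh6[1]. ChIP and input libraries share this strain, stage and genotype, their sex is given as unknown, and no treatment is labelled. The 3 ChIP libraries were made with a mouse monoclonal antibody to tango, and the 3 input libraries hold the chromatin DNA before precipitation. The titles of the series and of the samples name TCF in place of tango, so the labels do not settle which protein was precipitated. One list of peaks stands for all 6 libraries, and nothing in it is given per library. Read depth is therefore unknown and no replicate error can be attached to any peak. The study's question, as far as the labels give it, is where in the larval genome the DNA was enriched.

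Tango is the Drosophila counterpart of mammalian ARNT, a transcription factor of the bHLH-PAS family. It binds DNA as a dimer with partners such as Single-minded in the midline of the nerve cord, Trachealess in the airways and Spineless in antenna and leg, and it enters the nucleus where a partner is present. TCF, also called Pangolin, is the DNA-binding effector of Wingless signalling. Arm 3R is the right arm of the third chromosome. It carries both homeotic gene complexes of the fly, is rich in genes along most of its length, and ends in a telomere of retrotransposon arrays and satellite repeats. No annotation or sequence of release 5 was used here, so genes and repeats at these peaks were not determined and no sequence is shown.

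The 290 peaks fell into 4 kinds by width, score and spacing. The score is the authors' own value per peak, on a scale that the sources used here do not give, so it is read only within this list. Strong and weak mean a high or low score, and whether it measures enrichment or significance is not given. Broad peaks, at least 4 kb wide, numbered 20 (6.90%, 95% Wilson interval 4.51 to 10.4%). Narrow strong peaks, limited to 1 kb in width and scoring 100 or more, numbered 26 (8.97%, 6.19 to 12.8%). A further 126 peaks (43.4%, 37.9 to 49.2%) lay in runs of at least 3 peaks whose neighbouring centres were within 5 kb. The remaining 118 (40.7%, 35.2 to 46.4%) were mostly narrow and stood alone or as a couple. These intervals cover counting error only and treat each peak as independent. Peaks in runs are not, so the interval of their share is too narrow. The limits that define the kinds come from earlier results on these data.

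Score and width separated the kinds in different ways. Over all 290 peaks the median score was 20.96 (interquartile range 13.3 to 52.1) and the median width was 462.5 bp (331 to 765 bp). Scores under 20 were held by 141 peaks (48.6%), scores of 20 to under 50 by 75, of 50 to under 100 by 45, of 100 to under 300 by 20, and of at least 300 by 9. Peaks in runs had a median score of 14.5 (11.2 to 19.3), and none reached 50. Broad peaks had a median of 58.3 (55.2 to 64.1), and narrow strong peaks, which the score itself defines, had a median of 178 (140 to 352). The 20 broad peaks made up 52.3% of the 316 kb covered by all 290, while the 126 peaks in runs covered 23.7% and the 26 narrow strong peaks 5.26%. Width and score had a Spearman's rho of 0.52 over the 290 peaks, given as a description because both values come from the same peak calling. It was 0.68 within runs (126 peaks), 0.33 among narrow strong peaks (26) and 0.50 among the remaining peaks (118). Among the 19 broad peaks with scores under 100 it was 0.19. Pearson's r on the untransformed values of all 290 peaks was 0.12.

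**Figure D1:**
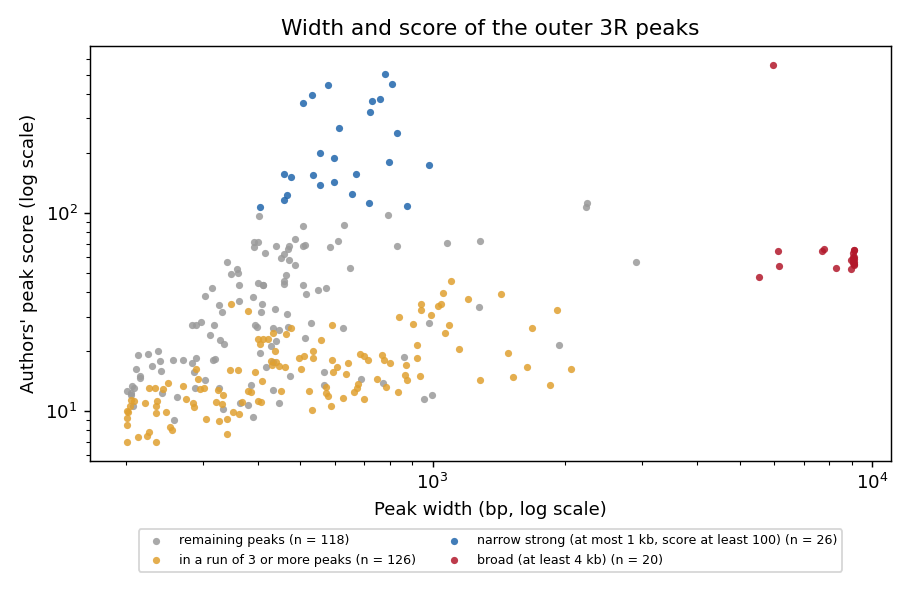
Width in bp (x axis, log scale) and the authors' score (y axis, log scale) of the 290 peaks, 1 point per peak, coloured by kind. The 26 narrow strong peaks form a column between 404 and 983 bp, 19 of the 20 broad peaks sit between scores of 47.57 and 65.45, and peaks in runs stay under 50.

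Peaks were unevenly spread along the arm, which runs here over 25.1 Mb from the boundary to the last peak at 27904390. In bins of 1 Mb counted from that outer end, the median was 11 peaks (interquartile range 9 to 14 over 25 bins). The outermost bin, from 26904391 to 27904390, was the fullest with 25 peaks, of which 21 were in runs, 1 was broad and none was narrow and strong. Next came 23 peaks between 3904391 and 4904390, and 19 in each of the bins that start at 5904391 and 15904391. The emptiest bin, from 4904391 to 5904390, held 1 peak and lay directly between 2 of the fullest. In these 3 further bins, 14, 18 and 13 of the peaks were in runs. When peaks with centres within 10 kb were merged, the 290 peaks became 167 regions, the outermost bin held 8, and the bins ranged from 1 to 11 with a median of 7. The variance of the bin counts was 2.60 times their mean for peaks and 0.78 times for merged regions.

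The kinds were placed differently along the arm. Divided into 3 equal stretches of 8.35 Mb, the outer part held 102 peaks in the distal stretch, 86 in the middle and 102 in the proximal one. Of the 20 broad peaks, 12 were in the distal stretch and 4 in each of the others. Of the 26 narrow strong peaks, 6 were distal, 11 middle and 9 proximal. Peaks in runs numbered 41, 28 and 57 in the same order. The distal stretch had the most covered bases (145 kb, against 83.2 kb in the middle and 88.1 kb in the proximal one), with 57, 57 and 53 merged regions. These are counts in 1 list and were not tested against each other. Narrow strong peaks occurred in 18 of the 25 bins, with at most 3 in a bin, whereas broad peaks occurred in 14 and runs in 16.

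**Figure D2:**
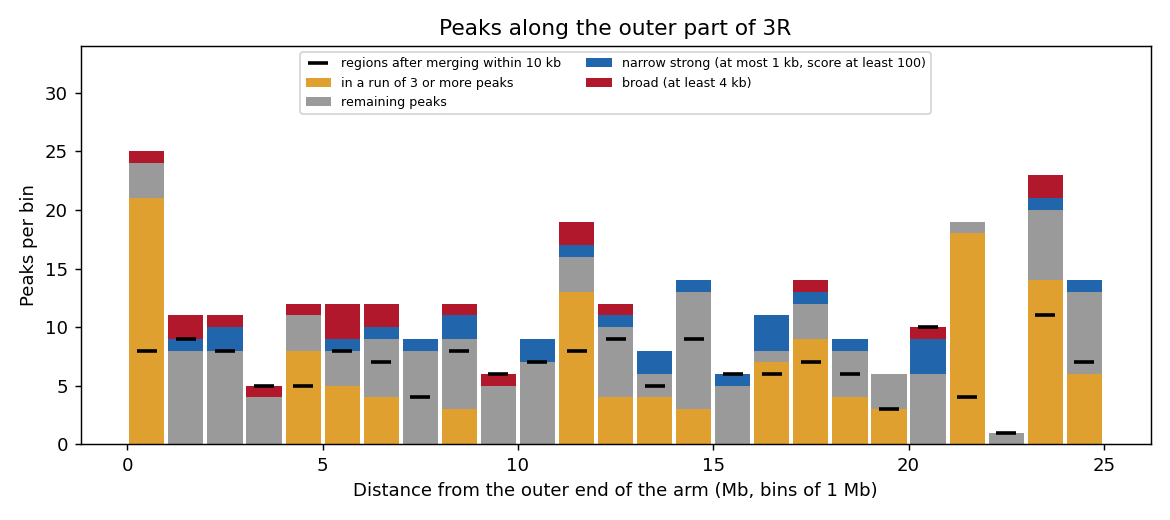
Peaks per bin of 1 Mb (y axis) against distance from the outer end of the arm in Mb (x axis), stacked by kind, with black dashes for regions after merging within 10 kb. The outermost bin is the tallest with 25 peaks and drops to 8 merged regions, and the bin with 1 peak stands between bins of 19 and 23.

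Much of the arm was free of peaks. The stretch between neighbouring peaks had a median of 25.6 kb, with 1 in 4 at or under 352 bp and 1 in 4 at or over 132 kb. Stretches of over 100 kb numbered 90 and together made up 84.5% of the outer part. The longest, of 856 kb, ran from 5166586 to 6022745. Those of 518 kb from 20037941 to 20556007, 493 kb from 7803506 to 8296854, 486 kb from 6405607 to 6891392 and 449 kb from 18710538 to 19159414 followed. At the other end of the scale, 78 stretches were at most 400 bp long, 39 were longer but no more than 5 kb, and only 16 lay between 5 and 20 kb. Neighbouring peaks were thus mostly either within 5 kb or more than 20 kb apart, as were 117 and 156 of the 289 stretches.

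The strongest peak of the outer arm was a broad one with a narrow neighbour. It ran from 16092850 to 16098798, measured 5949 bp and scored 560.02. A peak of 506 bp at 16092180 to 16092685 with a score of 360.68, the eighth strongest, stood at a gap of 164 bp on its low-coordinate side. From end to end the couple spanned 6619 bp. No other broad peak of outer 3R reached a score of 100, and the next highest broad peak scored 65.45.

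Narrow strong peaks supplied the rest of the top 10, and in all 13 of the 14 highest scores. Their widths ranged from 404 to 983 bp with a median of 604.5 bp. The strongest lay at 24983188 to 24983965, with a width of 778 bp and a score of 501.36, rank 17 among the peaks of all chromosome arms and rank 47 in the whole list. The peak at 7604004 to 7604811 (808 bp) scored 447.21 and the one at 11054979 to 11055555 (577 bp) scored 444.89. Both stood close in rank, at 29 and 30 on the arms. The peaks at 9809136 to 9809667, 13220230 to 13220987 and 19934590 to 19935318 followed with scores of 392.66, 377.59 and 366.35, at widths of 532, 758 and 729 bp. Ranks 9 and 10 of outer 3R were at 11168677 to 11169398 (324.75, 722 bp) and 4637099 to 4637709 (269.48, 611 bp). Lower scores were more common, with 15 of the 26 under 200, and 4 further peaks of at most 1 kb scored between 80 and 100. Only 2 peaks over 1 kb other than the broad ones reached 100, and they were alike in width, 2252 bp at 17434950 to 17437201 (112.83) and 2241 bp at 18276530 to 18278770 (106.63).

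Most narrow strong peaks stood alone. Of the 26, 24 had no other peak centre within 5 kb, against 16 of the 20 broad peaks and 126 of all 290. The value of 86 of 118 for the remaining peaks is no fair measure, since that kind leaves out runs by definition. The median distance to the nearest peak of any kind was 41.5 kb (interquartile range 15.1 to 55.0 kb). The exceptions were the member of the couple described above and a peak at 17476640 to 17477294 (125.10), which had a peak of 573 bp and a score of 41.94 with its centre 1655 bp away. Between themselves, neighbouring narrow strong peaks were a median of 746 kb apart and at most 2389 kb. The closest, at 19182502 to 19183296 (181.36) and 19189204 to 19189662 (116.50), were 6.53 kb apart. Without any other peak within 50 kb, 9 of the 26 counted as isolated. As far from others were 54 of all 290 peaks, among them 6 of the 20 broad and 39 of the 118 remaining peaks, a kind that leaves out runs. Besides the peaks with scores of 501.36, 447.21, 324.75 and 269.48, the isolated narrow strong peaks were at 11245592 to 11246574 (175.14), 14567206 to 14567876 (158.09), 14620984 to 14621536 (139.19), 12364450 to 12365167 (112.28) and 2915758 to 2916633 (108.58). The last is also the first peak of the outer arm, and its nearest neighbour was 346 kb away. The number of isolated peaks depends on the distance asked for, with 18 at 20 kb and 1 at 100 kb.

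A shared width recurred among the broad peaks. Of the 20, 11 were 9075 to 9119 bp wide, with a median of 9099 bp and a standard deviation of 15.0 bp over the 11. Their scores were close as well, from 54.85 to 64.95 with a median of 58.4. As no peak of outer 3R was wider than 9119 bp, the 10 widest belonged to this set by its definition. The widest, of 9119 bp, ran from 22833182 to 22842300 with a score of 59.59. The next were 9113 bp at 23346965 to 23356077 (56.26), 9110 bp at 15267263 to 15276372 (64.95) and 9105 bp at 25707783 to 25716887 (58.38). After them came 9102 bp at 10020209 to 10029310 (55.32), 9099 bp at 4228784 to 4237882 (64.95) and 9090 bp at 22202090 to 22211179 (54.85). The set was completed by 9084 bp at 4427549 to 4436632 (59.59), 9081 bp at 15982481 to 15991561 (55.79), 9080 bp at 19661193 to 19670272 (57.68) and 9075 bp at 7205011 to 7214085 (62.63). They lay all along the arm, and 2 couples of them had the same score to both decimals, 64.95 and 59.59, at places far from each other. Equal scores were common, as 71 of the 290 peaks shared theirs with at least 1 other.

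The other broad peaks of moderate score included shorter pieces of similar total length. Peaks of 8990 bp at 22336291 to 22345280 (58.15) and 8967 bp at 18065290 to 18074256 (52.07) fell just short of 9.0 kb. A peak of 7687 bp at 21553007 to 21560693 (63.97) had a neighbour of 1277 bp (33.54) at a gap of 105 bp, and both together measured 9069 bp from end to end. Likewise, a peak of 6143 bp at 21661443 to 21667585 (54.10) had a neighbour of 2906 bp (56.87) at a gap of 70 bp, and together they measured 9119 bp, the length of the widest single peak. With neighbours at a gap of at most 400 bp joined, a step added after these widths had been seen, 13 regions were 9.0 to 9.2 kb long. Another joined region was shorter, since the peak of 6132 bp at 26143110 to 26149241 (64.47) and its neighbour of 1281 bp (72.56) spanned 7577 bp. Single peaks of 7782 bp at 27714630 to 27722411 (65.45), 8279 bp at 26221961 to 26230239 (52.99) and 5534 bp at 24584088 to 24589621 (47.57) made up the rest. No peak was between 3.0 and 5.5 kb wide, so the limit of 4 kb cut through an empty range. For 11 of the 20 broad peaks no other peak lay within 20 kb of either edge.

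**Figure D3:**
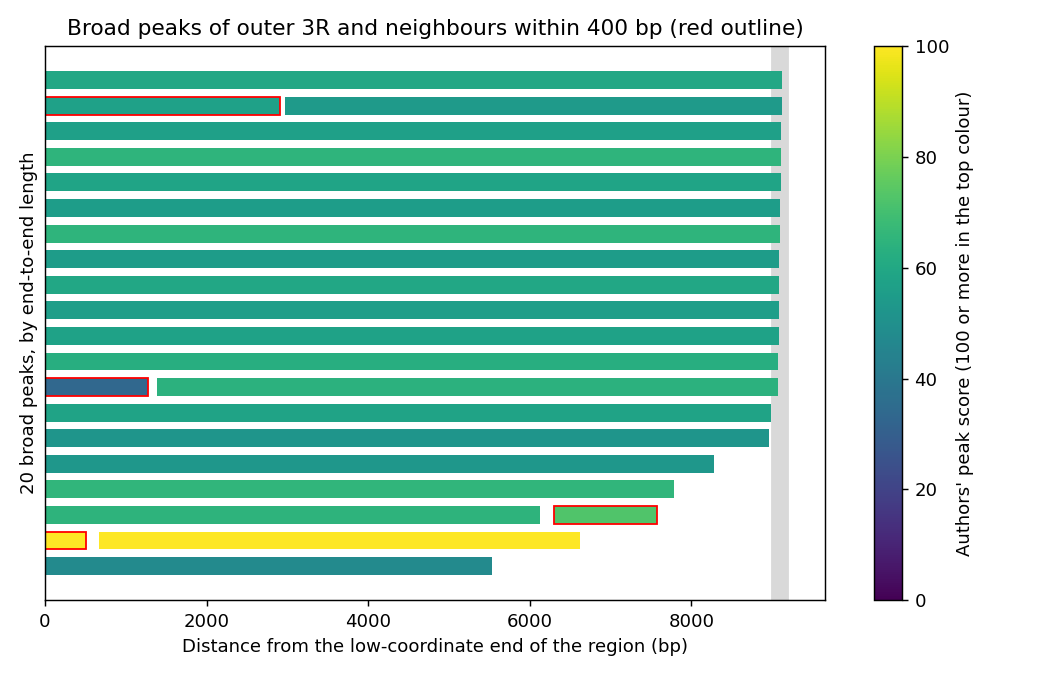
The 20 broad peaks as bars in bp from the low-coordinate end of their region (x axis), sorted by end-to-end length and coloured by the authors' score, with neighbours at a gap of at most 400 bp outlined in red. The grey band marks 9.0 to 9.2 kb, where 11 single peaks and 2 joined couples end, and the couple with scores of 560.02 and 360.68 ends at 6619 bp.

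Runs held many weak peaks in little space. There were 28 runs of at least 3 peaks, with a median span of 3831 bp and a longest of 6962 bp. Besides them, 19 couples and 126 lone peaks made up the arm, so that 164 of 290 peaks (56.6%, Wilson interval 50.8 to 62.1%) had a neighbour within 5 kb. These 164 peaks came from 47 runs and couples, so the interval, which treats peaks as independent, is too narrow. Joining peaks at a gap of at most 400 bp first left 212 regions, of which 30.7% had such a neighbour. The fullest run had 8 peaks from 23701482 to 23708443. Its scores along the arm were 34.56, 16.14, 10.07, 18.07, 8.01, 15.79, 9.77 and 45.37, so the outermost peaks were the strongest and, at 940 and 1101 bp, the widest. A run of 7 peaks from 6022745 to 6028609 also had its highest scores at its ends, 24.77 and 23.15, with 12.87 to 17.93 between them. The run of 6 from 6167415 to 6174260 had 34.86 and 16.89 at the ends and at most 13.29 inside. In contrast, the run of 6 from 10007619 to 10011150 was flat, with scores between 9.16 and 16.70, and that from 3385197 to 3388804 rose from 7.62 to 20.59 along the arm. A further run of 6, from 27517914 to 27521880, had scores up to 17.78.

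Higher scores at the ends were seen in part of the runs only. Among the 20 runs of at least 4 peaks, both end peaks were above the median score of the inner peaks in 8, 1 end peak was in 6, and neither was in 6. The 40 end peaks had a median score of 18.0 (interquartile range 12.9 to 24.7) and the 62 inner peaks had a median of 13.1 (10.6 to 16.7). In the outer parts of 2L, 3L and X, both ends were above in 11 of 24, 8 of 18 and 11 of 17 such runs. This pattern was looked for after the runs had been seen, and it was not tested.

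The last peaks of the arm formed a run with even spacing. It had 6 peaks from 27899205 to 27904390, and the last base of the list on 3R is the end of this run. Successive peaks began 971, 963, 1024, 983 and 955 bp after one another, a mean of 979 bp with a standard deviation of 27.1 bp over these 5 intervals. Their widths were 497, 463, 509, 380, 347 and 290 bp, and their scores were 18.46, 24.48, 19.07, 31.90, 34.61 and 16.32. Relative to its mean, the spread of the intervals was 2.77%, against a median of 48.0% over the 20 runs of at least 4 peaks and 16.6% in the next most even one. A run of 3 peaks from 13864088, with 2 intervals only, had 2.09%. No run of at least 4 peaks in the outer parts of 2L, 3L, X or 2R was below 10%, where the lowest values were 21.0, 25.4, 22.3 and 19.4%. This comparison was made after the spacing had been seen and has no test.

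**Figure D4:**
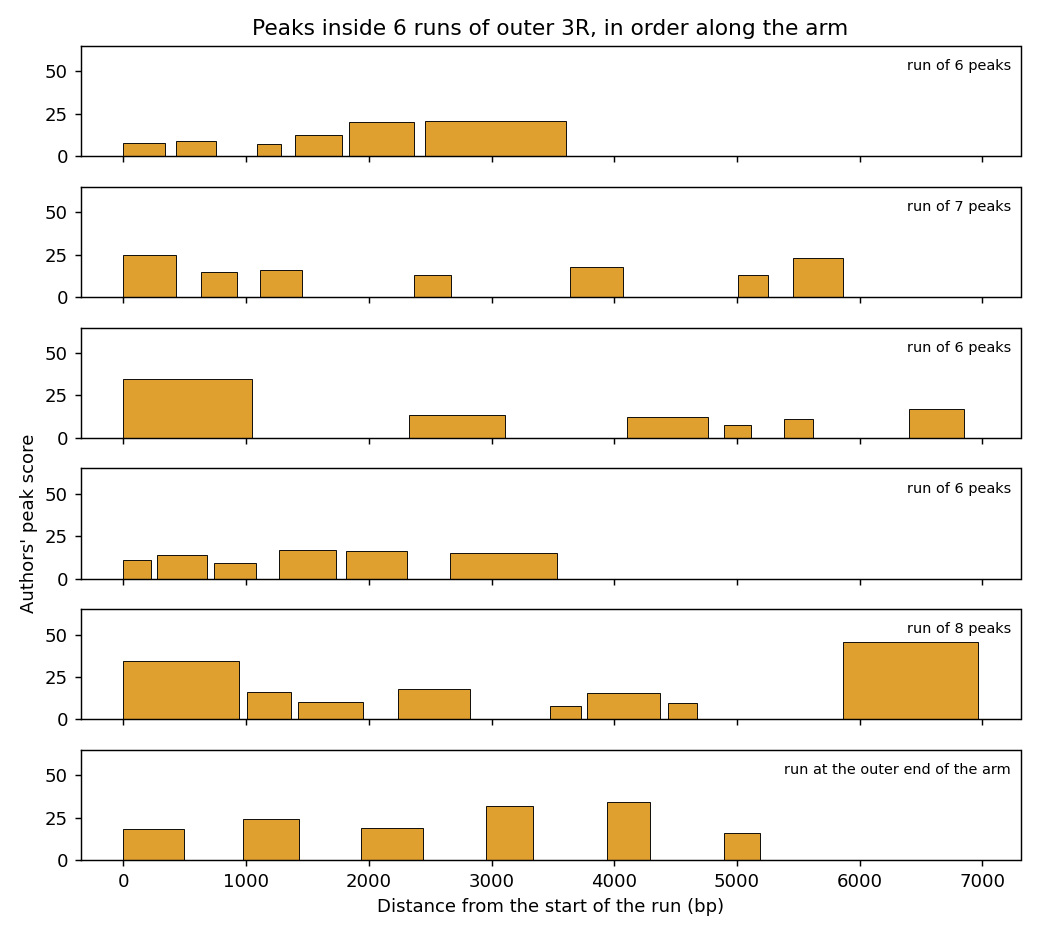
Score (y axis) of each peak in 6 runs, drawn at its distance in bp from the start of the run (x axis) with its own width. The run of 8 peaks is highest at both ends (34.56 and 45.37), and the run at the outer end of the arm has 6 peaks that begin 955 to 1024 bp apart.

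Outer 3R was compared with the outer parts of 2L, 3L and X, each taken without the centromere-side 10% of its span between first and last peak. Outer 3R had 11.6 peaks per Mb (95% exact interval 10.3 to 13.0, 290 peaks over 25.1 Mb). The low peak density of 3R was known when it was chosen, so the densities are a description with no test. The values were 14.6 on outer 2L (13.0 to 16.3, 302 peaks), 13.2 on outer 3L (11.7 to 14.8, 292 peaks) and 14.4 on outer X (12.7 to 16.1, 289 peaks), and 13.5 on outer 2R (11.9 to 15.3, 256 peaks). The density of 3R was 0.79 times that of 2L (95% exact interval 0.67 to 0.94), 0.81 times that of X (0.68 to 0.95) and 0.88 times that of 3L (0.74 to 1.03). These intervals treat each peak as independent, which peaks in runs are not, and are therefore too narrow. Counted as merged regions, 3R had 6.66 per Mb, 0.88 times 2L (0.70 to 1.10), 0.93 times 3L (0.74 to 1.17) and 0.79 times X (0.64 to 0.99). Merged regions on outer 2R came to 6.76 per Mb (95% exact interval 5.64 to 8.03), close to the value on 3R.

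By kind, the intervals of the densities on outer 3R overlapped those of 2L, 3L and X, by the least for peaks in runs against 2L. Narrow strong peaks stood at 1.04 per Mb on 3R (0.68 to 1.52), 1.06 on 2L, 1.13 on 3L and 1.29 on X. Broad peaks stood at 0.80 per Mb (0.49 to 1.23), against 0.77, 1.04 and 1.09 in the same order. Peaks in runs numbered 5.03 per Mb (4.19 to 5.99), against 7.05 on 2L (5.95 to 8.29), 6.02 on 3L and 5.61 on X. The remaining peaks stood at 4.71 per Mb on 3R (3.90 to 5.64) and 6.36 on X (5.31 to 7.56). Their densities on 2L and 3L were 5.698 and 5.03 per Mb. On outer 2R, narrow strong peaks, broad peaks, peaks in runs and the remaining peaks stood at 1.00, 1.06, 6.55 and 4.91 per Mb. Covered bases came to 1.26% of outer 3R, against 1.60% of 2L, 1.72% of 3L and 1.69% of X. Median scores were 20.96 on 3R, 18.8 on 2L, 20.4 on 3L and 24.9 on X, and median widths were 462.5, 482.5, 462.5 and 464 bp. Regions of 9.0 to 9.2 kb, joined as above, numbered 13 on 3R, 7 on 2L, 15 on 3L, 7 on X and 8 on 2R. These are counts over unequal spans of 25.1, 20.7, 22.1, 20.1 and 18.9 Mb in that order. None of the differences by kind, width or score was tested. The widest peak of outer 3R measured 9119 bp, not far from the 10225 bp on 2R. Those of the other arms were wider, at 21471 bp on 2L, 26370 bp on 3L and 21927 bp on X. The largest run on outer 3R held 8 peaks, against 9 on 2L, 23 on 3L, 11 on X and 33 on 2R.

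**Figure D5:**
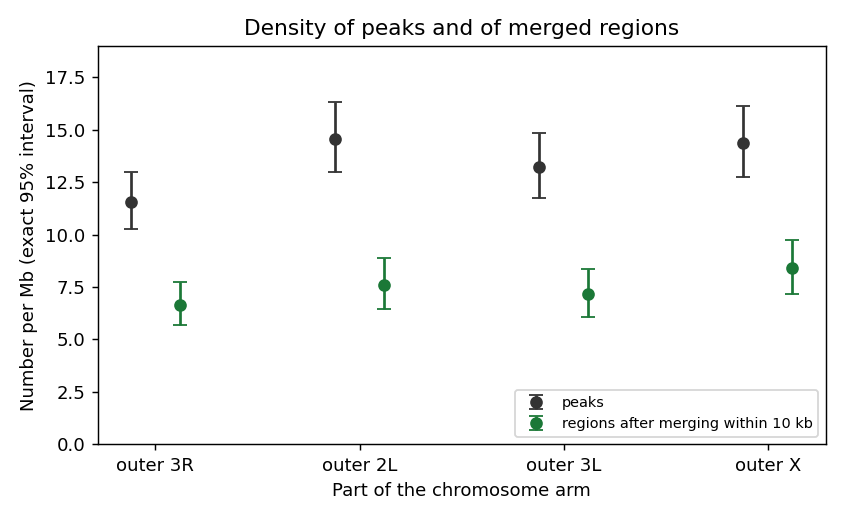
Number per Mb (y axis) of peaks and of regions after merging within 10 kb, for the outer parts of 3R, 2L, 3L and X (x axis), with exact 95% intervals for counting error. Outer 3R has the lowest peak density at 11.6 per Mb, and its merged density of 6.66 lies within the intervals of 2L and 3L and below that of X (7.18 to 9.76). Outer 2R, with 6.76 merged regions per Mb, is not drawn.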

How the data were processed

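Chromatin from larvae was sequenced as 3 ChIP and 3 input libraries, and the authors deposited 1 list of peaks with a score for each, given to 2 decimals. The program was MACS and the build FlyBase release 5, per the file headers. The submitters' processing notes list BDGP5, MACS2, BWA and CASAVA (versions 1.7.0.2 and 1.7.0.3) without roles. The sources used here do not give the threshold, the way libraries were combined or the handling of reads with several placements.

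Computation used scipy 1.17.1, pandas 2.3.3 and numpy 2.4.6 under Python 3.11.15, and matplotlib 3.10.9 for plots. Centres within 5 kb formed runs, centres within 10 kb merged regions, and gaps of at most 400 bp joined regions. Lengths are spans between peaks, with the centromere side at low coordinates on 3R and 2R and at high ones on 2L, 3L and X. Densities have exact Poisson intervals and their ratios to 3 other arms exact conditional binomial intervals. A binomial test had been planned for these ratios, but its p-values are not reported, since the low density of 3R was known when the arm was chosen. Of the functions, only the density test, the runs and the joining were tried on simulated data, with independent counts or planted peaks.

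Members, kinds, limits and lists were chosen with earlier results of these data known. The rule for named peaks took the 10 highest scores, the 10 widest, the isolated narrow strong peaks, the 5 fullest runs, 9.0 to 9.2 kb peaks, couples with a peak of 5.7 to 6.1 kb, the first and last peak, those at the boundary and the 5 longest empty stretches. Other peaks and runs named in the text, such as the remaining broad peaks, those of 2252 and 2241 bp, the closest narrow strong peaks and 2 further runs of 6 and 1 of 3, were chosen after their values were seen. Alternatives covered merging, joining, score and width limits, distances, bins and the boundary.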

Additional observations from a re-analysis of the deposited data

How the results depend on the processing

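No paired analysis was possible because values per library are lacking, which also kept out a replicate block and fits that omit a replicate. The letters of a shared sequence were not searched, since no release 5 genome was used. The density of outer 3R stayed below that of 2L, 3L and X under each alternative run, though most of the intervals include 1. The alternatives recount the same peaks, and the low density of 3R was known when the arm was chosen. They are therefore no independent support for it. Outer 2R was not part of these alternatives. Relative to 2L and X, merging within 10 kb gave 0.88 (0.70 to 1.10) and 0.79 (0.64 to 0.99), peaks at or above the list median score gave 0.90 (0.62 to 1.31) and 0.80 (0.56 to 1.16, 62 peaks on 3R), and peaks of at most 1 kb gave 0.82 (0.68 to 0.98) and 0.84 (0.70 to 1.01). Relative to 3L, the same alternatives gave 0.93 (0.74 to 1.17), 0.96 (0.66 to 1.40) and 0.89 (0.74 to 1.07) in that order. By covered bases, 3R stood at 0.79 times 2L, 0.74 times 3L and 0.75 times X. The share of peaks with a neighbour moved to 50.7% at 2 kb, 63.4% at 20 kb and 30.7% after joining. Joining also raised the median width to 507.5 bp and the median score to 30.2. In bins of 0.5 Mb the highest count was 15 peaks, held both at 4404391 to 4904390 and in the outermost bin. Bins of 1 Mb shifted by 0.5 Mb had their highest count of 18 at 15404391 to 16404390. That shift left only 0.5 Mb of the arm in the outermost bin, the stretch with 15 peaks, so its count cannot be set against full bins. The place of the fullest bin thus depends on how the bins are drawn, in part through this cut. Lowering the score limit to 50 gave 50 narrow strong peaks. Isolated ones numbered 18 at 20 kb and 1 at 100 kb. Beyond fewer peaks in stricter sets, the cause of these shifts was not tested. Unknown depth limits every score and width, and spans between peaks stand in for arm lengths.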
